A study of Mus musculus with 10 samples.

Results

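The GTPases of immunity-associated proteins (GIMAPs) are a family of small GTP-binding proteins of lymphocytes, encoded side by side in a single gene cluster. The 8 GIMAP genes described here, Gimap1, Gimap3, Gimap4, Gimap5, Gimap6, Gimap7, Gimap8 and Gimap9, were taken by gene name from the 55809 gene rows of the count files, and the naming rule uses no measured value. RNA was sequenced in bulk from Treg cells of spleen and lymph nodes of Foxp3-AID mice, whose own Foxp3 gene makes the protein with an auxin-inducible degron (AID) attached and also carries a ZsGreen reporter and Cre recombinase. In the 6 R26-TIR1(F74G) libraries the mice also carried a ROSA26 allele encoding the plant E3 ligase TIR1(F74G) and mCherry behind a STOP cassette that Cre removes, so that TIR1 was made in cells with Foxp3-driven Cre. The 4 R26-WT libraries came from Foxp3-AID mice without TIR1. Both groups received 5-ph-IAA, the auxin analog that brings TIR1(F74G) and the degron together, for 14 days. The labels give no age, and do not state that each library is a separate animal, so p-values measure the spread between these libraries. Where the study counts changed genes after 14 days of degradation, it names hemizygous Foxp3-AID/y males, but not these libraries. The study describes a general sort of Foxp3-AID Treg cells by ZsGreen, with mCherry required as well for R26-TIR1(F74G) mice, but does not say so for these libraries by name. Where that scheme was used, the gate and the genotype cannot be told apart.

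Some GIMAP proteins anchor to intracellular membranes, where GTP binding controls their assembly, and several members are needed for the survival of resting T cells. Gimap5 sits on lysosomes and its loss depletes peripheral T cells, Gimap3 is its close mouse paralog, Gimap1 is needed for mature T and B cells, Gimap6 binds an ATG8 protein of the autophagy machinery, and Gimap4 takes part in T cell death. The comparison asks whether these genes differed in Treg cells whose Foxp3 protein was targeted for degradation.

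The family filled one stretch of chromosome 6 from 48624168 to 48747785 (GRCm39), 123618 bases long, in the order Gimap8, Gimap9, Gimap4, Gimap6, Gimap7, Gimap1, Gimap5 and Gimap3. Gimap6 and Gimap3 lie on the minus strand and the others on the plus strand. The Gt(ROSA)26Sor gene, where the TIR1 allele sits, is on the same chromosome, 64.3 Mb away. GIMAP proteins share a GTPase domain of the AIG1 type. It holds the phosphate-binding loop that is common to many GTPases and ATPases, in which a glycine, 4 residues of any kind and a second glycine are followed by lysine and then serine or threonine. Its 24 coding bases are printed for every gene because they show which members are near copies. They were read from GENCODE M39 transcripts on GRCm39, and capitals mark the codons of the last glycine, the lysine and the serine or threonine.
Gimap5 (chr6:48729528-48729551, plus strand): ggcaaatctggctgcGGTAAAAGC
Gimap3 (chr6:48742821-48742844, minus strand): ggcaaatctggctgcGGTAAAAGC
Gimap7 (chr6:48700458-48700481, plus strand): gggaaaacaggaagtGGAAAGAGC
Gimap1 (chr6:48719486-48719509, plus strand): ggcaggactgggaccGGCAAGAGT
Gimap6 (chr6:48679684-48679707, minus strand): gggaaaacaggaagcGGGAAAAGT
Gimap4 (chr6:48667355-48667378, plus strand): ggaaaaactggagcaGGAAAGAGT
Gimap9 (chr6:48654457-48654480, plus strand): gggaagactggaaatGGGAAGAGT
Gimap8 match 1 (chr6:48627190-48627213, plus strand): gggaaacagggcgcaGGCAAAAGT
Gimap8 match 2 (chr6:48633053-48633076, plus strand): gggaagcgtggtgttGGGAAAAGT
Gimap8 match 3 (chr6:48635680-48635703, plus strand): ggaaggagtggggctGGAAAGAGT
Gimap5 and Gimap3 carried the same 24 bases, and Gimap8 matched the loop 3 times. Over 895 aligned coding bases Gimap5 and Gimap3 were 90.4% identical, whereas the other 27 pairs lay between 55.7% and 66.6%. Of the 50-base stretches in their transcripts, 190 were shared, which is 4.24% of those of Gimap5 and 5.24% of those of Gimap3. No other pair shared one. Read pairs that lie wholly within shared stretches cannot be assigned to either gene, and the split of counts between these 2 genes is uncertain there.

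R26-WT libraries held between 44929734 and 54795718 counted read pairs and R26-TIR1(F74G) libraries between 24158699 and 49333756. Each GIMAP gene had at least 2774 raw counts in every library. Of the gene rows, 16363 had a mean count of at least 10 and were tested with DESeq2, and all 8 GIMAP genes were among them. Over all tested genes 284 passed an adjusted p under 0.05, which is 1.74%, with 229 higher in R26-TIR1(F74G) cells and 55 lower (0.336%). Treg and CD4 T cell markers were present throughout, with summed normalized counts of 246527 to 293909 in R26-WT and 235841 to 268655 in R26-TIR1(F74G) libraries, and 0 of 8 passed. Foxp3 RNA was at 8930 ± 2366 (SD, n = 4) normalized counts in R26-WT and 9401 ± 3415 (SD, n = 6) in R26-TIR1(F74G) libraries. The degron acts on the protein, so this level does not check the labels.

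GIMAP transcripts were abundant in Treg cells of both groups. On the TPM scale, which divides counts by exon length and then sets every library to the same total so that genes can be compared, the 8 genes together took 8238 ± 219 TPM (SD, n = 4) in R26-WT and 7852 ± 266 TPM (SD, n = 6) in R26-TIR1(F74G) libraries. The summed level ran from 8038 to 8514 in the first group and from 7510 to 8258 in the second, so the groups overlapped. On the scale of normalized counts, not divided by length, the sum ran from 285045 to 315286 in R26-WT and from 258968 to 282194 in R26-TIR1(F74G) libraries, without overlap. No test was made of either sum. With the joined exon length of each gene as the divisor, Gimap4 had the highest mean level over the 10 libraries, at 2838 TPM, and ranked 18 among all genes. Gimap3 followed at 2523 TPM and rank 23, but Gimap4 was above it in 8 of 10 libraries only. Gimap6 stood at 954 TPM, below Gimap3 in all 10. Gimap9 and Gimap1, both at 518 TPM, could not be ordered, each being higher in 5 of 10 libraries. Gimap7 was next at 354 TPM, above Gimap8 (212 TPM) in 9 of 10 libraries. Gimap5 came last by this divisor at 89.5 TPM, below Gimap8 in all 10. The order rests partly on that divisor. With the length of the canonical transcript in its place, an alternative chosen after seeing the data, Gimap3 came first at 2970, above Gimap4 at 2832 in 6 of 10 libraries, and Gimap6 followed at 1738. Gimap1 came to 962, above Gimap9 in all 10 libraries, and Gimap7, at 649 beside 608 for Gimap9, was above it in 7 of 10. Gimap5, whose joined exons are 4149 bases and whose transcript is 1980, came to 188 beside 212 for Gimap8 and was above it in 4 of 10 libraries.

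**Figure D1:**
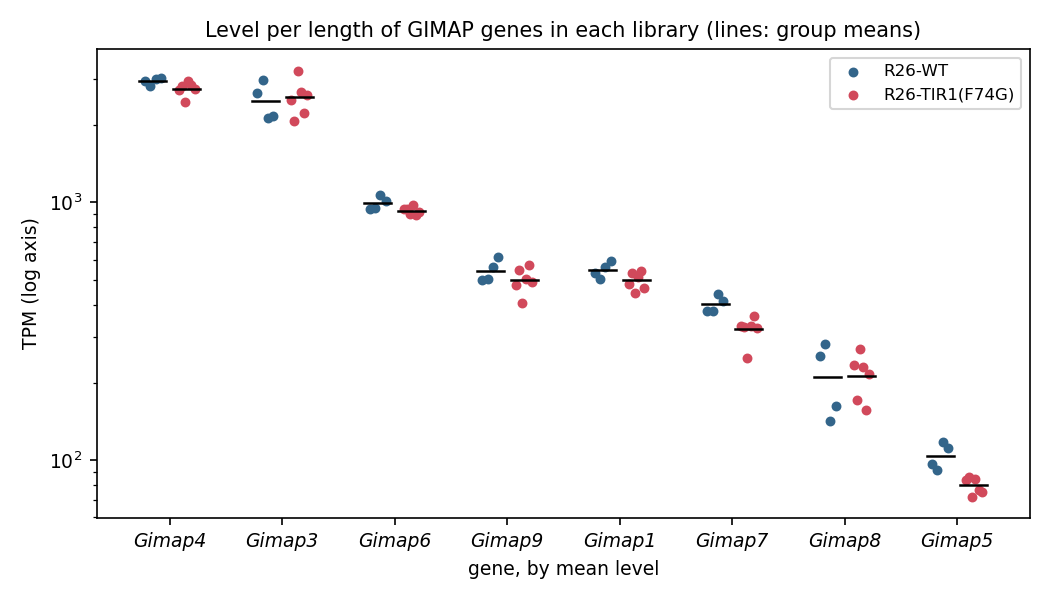
Level per length of the 8 GIMAP genes, ordered by mean, as TPM on a log axis. Each point is a library, blue for R26-WT (n = 4) and red for R26-TIR1(F74G) (n = 6), and lines mark group means. Gimap4 (mean 2838 TPM) and Gimap3 (2523 TPM) lie above the other genes in every library and Gimap5 (89.5 TPM) lies lowest, with joined exon lengths as the divisor.

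Gimap5, the lysosomal member needed for T cell survival, had the largest difference between the groups. Its normalized counts in the R26-WT libraries 1 to 4 were 5622, 5198, 7890 and 7271, and in the R26-TIR1(F74G) libraries the lowest was 3897, the median 4878 and the highest 5524. Libraries 3 and 4 stood above the other R26-WT libraries, and 5 of 6 R26-TIR1(F74G) libraries lay below the lowest R26-WT library, so the groups overlapped by 1 library. The means were 6495 ± 1290 (SD, n = 4) and 4756 ± 543 (SD, n = 6), so that the log2 fold change was -0.45 with an SE of 0.15. This did not pass by DESeq2 (adjusted p = 0.130) or by the edgeR quasi-likelihood test (adjusted p = 0.292). Gimap5 made up 1.27% ± 0.18 (SD, n = 4) of the summed GIMAP TPM (joined exon lengths) in R26-WT and 1.02% ± 0.087 (SD, n = 6) in R26-TIR1(F74G) libraries.

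Gimap7, a member whose GTP hydrolysis requires pairing with another GIMAP molecule, showed the second largest difference. Its normalized counts were 12370, 12019, 16655 and 15112 in the R26-WT libraries 1 to 4, against a lowest of 7540, a median of 10807 and a highest of 12884 in the R26-TIR1(F74G) libraries. Library 7 was the lowest, and again 5 of 6 R26-TIR1(F74G) libraries lay below every R26-WT library. The means of 14039 ± 2226 (SD, n = 4) and 10780 ± 1794 (SD, n = 6) differed by -0.38 on the log2 scale (SE 0.16). Neither DESeq2 (adjusted p = 0.446) nor edgeR (adjusted p = 0.548) called it. In bulk RNA, fewer cells with a transcript and less of it per cell cannot be told apart.

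Gimap1, Gimap9, Gimap6 and Gimap4 had smaller differences, all within the spread of the libraries. Gimap1, needed for mature lymphocytes, was at 25187 ± 3660 (SD, n = 4) and 22046 ± 3007 (SD, n = 6), or -0.19 on the log2 scale (SE 0.14). Its count has a limit, since 36.0% of its exon bases are also exon bases of other genes, chiefly 1107 bases of the antisense gene Gimap1os, and read pairs on both were not counted. The difference of Gimap1os itself was -0.32 on the log2 scale (SE 0.16, adjusted p = 0.656 by DESeq2). Gimap9 was at 13401 ± 2316 (SD, n = 4) and 11859 ± 2065 (SD, n = 6), a difference of -0.18 (SE 0.17). Gimap6, the ATG8 partner, was at 52049 ± 7295 (SD, n = 4) and 46562 ± 3383 (SD, n = 6), a difference of -0.16 (SE 0.12). Gimap4, the death-associated member, was at 81277 ± 9011 (SD, n = 4) and 72853 ± 8062 (SD, n = 6), likewise -0.16 on the log2 scale (SE 0.12). All 4 had adjusted p = 1.00 by DESeq2. For each of the 4 genes the groups overlapped, and between 2 and 3 of 6 R26-TIR1(F74G) libraries lay below the lowest R26-WT library.

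Gimap3 and Gimap8 had the smallest differences. Gimap3, the Gimap5 paralog, had normalized counts of 96118, 104900, 88637 and 87924 in the R26-WT libraries and a lowest of 82455, a median of 93235 and a highest of 108716 in the R26-TIR1(F74G) libraries. The lowest and the highest value both came from the R26-TIR1(F74G) group. Its log2 fold change was -0.01 with a 95% interval from -0.22 to 0.20. Gimap8, the member with 3 loops, had 13264, 14241, 8517 and 9463 in the R26-WT libraries and a lowest of 8823, a median of 11654 and a highest of 12943 in the others. Here the R26-WT libraries 3 and 4, which were high for Gimap5 and Gimap7, were low. Its log2 fold change was -0.03 with a 95% interval from -0.37 to 0.32.

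**Figure D2:**
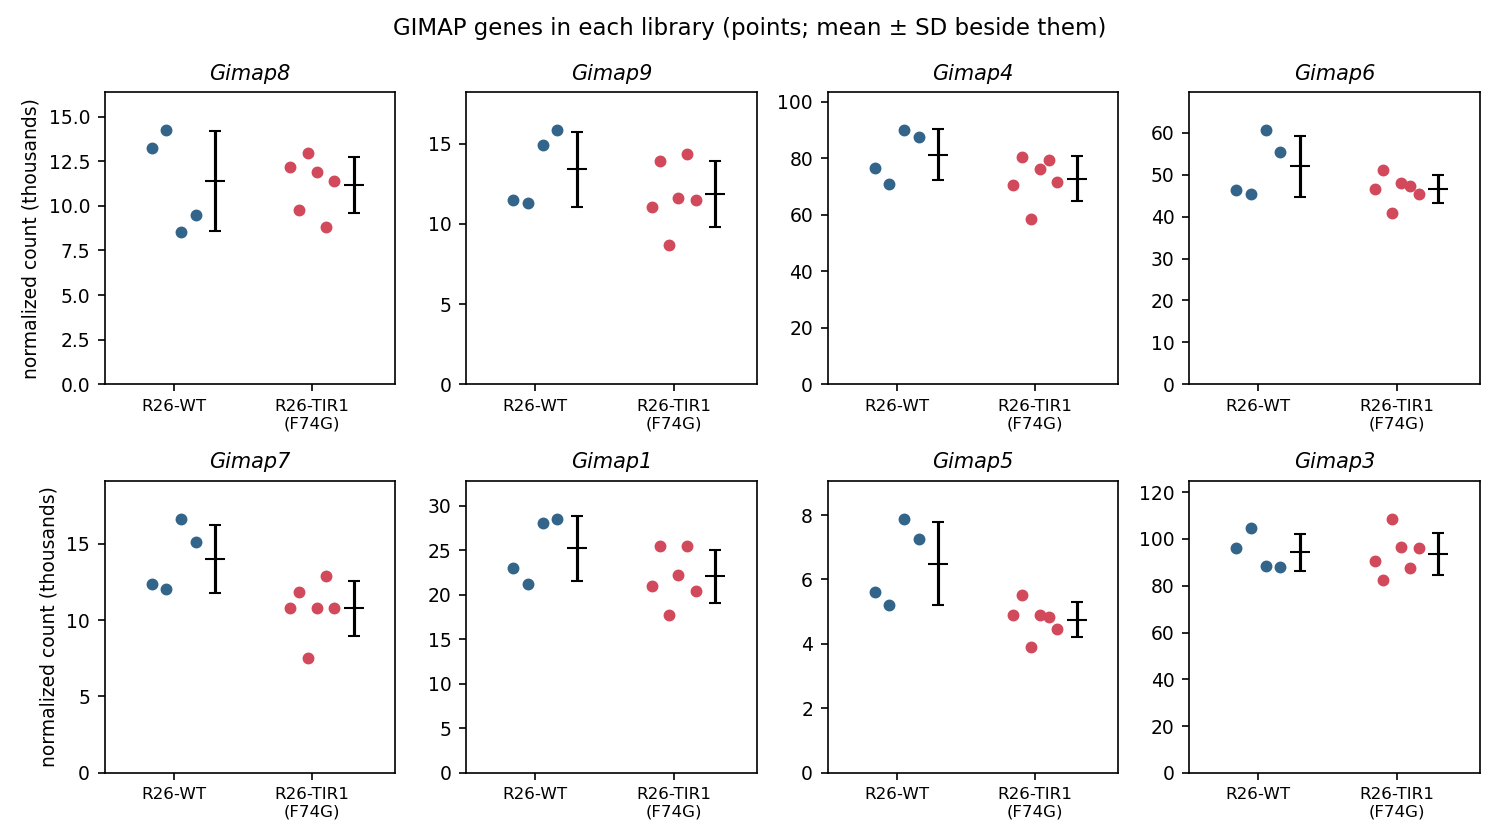
Normalized counts of the 8 GIMAP genes in each library, in their order along the chromosome, with the mean ± SD of each group beside its points (R26-WT n = 4, R26-TIR1(F74G) n = 6). The groups overlap for every gene, by 1 library for Gimap5 and Gimap7.

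By DESeq2, 0 of 8 GIMAP genes passed an adjusted p under 0.05, beside 1.74% of all tested genes. By edgeR 0 of 8 passed, beside 0.373% of all tested genes, and by limma voom 0 of 8, beside 0.489%. At an unadjusted p under 0.05, 2 of 8 (Gimap5 and Gimap7) passed and were lower by DESeq2 and edgeR, beside 2.68% of all genes that were lower at that threshold by DESeq2 and 2.62% by edgeR. By voom 3 of 8 passed and were lower, Gimap1 being the third. Beside them, 640 of the 16363 tested genes were lower at that threshold by voom, and 8.37% passed in either direction. All 8 log2 fold changes were below 0, beside 49.9% of all tested genes, but that of Gimap3 was above 0 after removal of a trend on exon length and that of Gimap8 above 0 by voom, and each was above 0 with some single libraries left out. The median over the 8 genes was -0.17, against 0.00063 over all tested genes. The groups did not overlap for 0 of 8 GIMAP genes and for 2.37% of all tested genes. The 8 genes varied together between libraries, as described next, so their shared direction is not 8 separate observations.

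The call for Gimap5 and Gimap7 depended on the model. With 1 surrogate variable, a measure of hidden variation between libraries estimated from these same counts, added to the DESeq2 design, the log2 fold change of Gimap5 was -0.36 (SE 0.067, adjusted p = 7.58e-06) and that of Gimap7 was -0.30 (SE 0.056, adjusted p = 1.05e-05). Both were then called lower, 2 of 8 GIMAP genes beside 1.68% of all tested genes called lower in that fit, while 0 of the other 6 passed. At an unadjusted p under 0.05, 5 of 8 were lower in that fit (Gimap1, Gimap4 and Gimap6 besides Gimap5 and Gimap7), beside 6.33% of all tested genes. Their differences had become smaller and their standard errors smaller still. The surrogate variable ordered the libraries in reverse of the exon length slope described below. It was 0.452 in R26-WT library 3 (slope -0.103) and -0.583 in R26-TIR1(F74G) library 7 (slope 0.123). With a trend on exon length removed and no surrogate variable, DESeq2 called neither Gimap5 (-0.48, adjusted p = 0.118) nor Gimap7 (-0.35, adjusted p = 0.0750). Without R26-WT library 2, Gimap5 was called with no surrogate variable (log2 fold change -0.54, DESeq2 adjusted p = 0.022), as the only one of the 8.

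**Figure D3:**
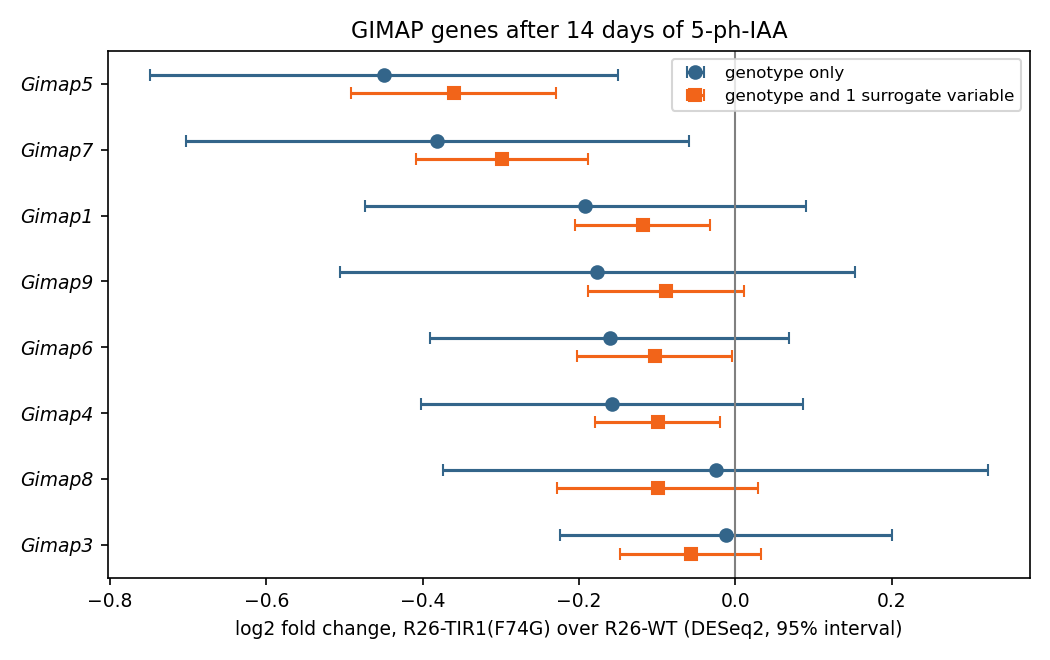
Log2 fold changes of the 8 GIMAP genes, R26-TIR1(F74G) (n = 6) over R26-WT (n = 4), with 95% intervals, from DESeq2 with genotype only (blue circles) and with 1 surrogate variable as well (orange squares). The intervals of Gimap5 and Gimap7 lie below 0 in both fits and those of Gimap1, Gimap4 and Gimap6 in the second, whose intervals are narrower.

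Between libraries of one group the 8 genes moved together in opposed sets, named here after their values were seen. With group means removed, the 15 pairs among Gimap1, Gimap4, Gimap5, Gimap6, Gimap7 and Gimap9 had Pearson r from 0.849 to 0.987 and Spearman rho from 0.709 to 0.976 over the 10 libraries. Gimap3 and Gimap8 correlated with each other (r = 0.799, rho = 0.721) and inversely with the other 6, the 12 pairs having r from -0.929 to -0.832 and rho from -0.927 to -0.782. All 28 pairs had an adjusted p under 0.05 for r, the largest being 0.0243, and 26 of them for rho (exact two-sided permutation test within groups, 17280 permutations, adjusted over 28 pairs). Without the 2 libraries farthest from the median of the members' mean, R26-WT library 3 and R26-TIR1(F74G) library 7, every r kept its sign and 18 of 28 pairs passed. By r the closest pair was Gimap5 with Gimap6 (r = 0.987, rho = 0.952), and by rho Gimap9 with Gimap1 (r = 0.975, rho = 0.976). The share of other gene pairs that correlate as closely was not computed.

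**Figure D4:**
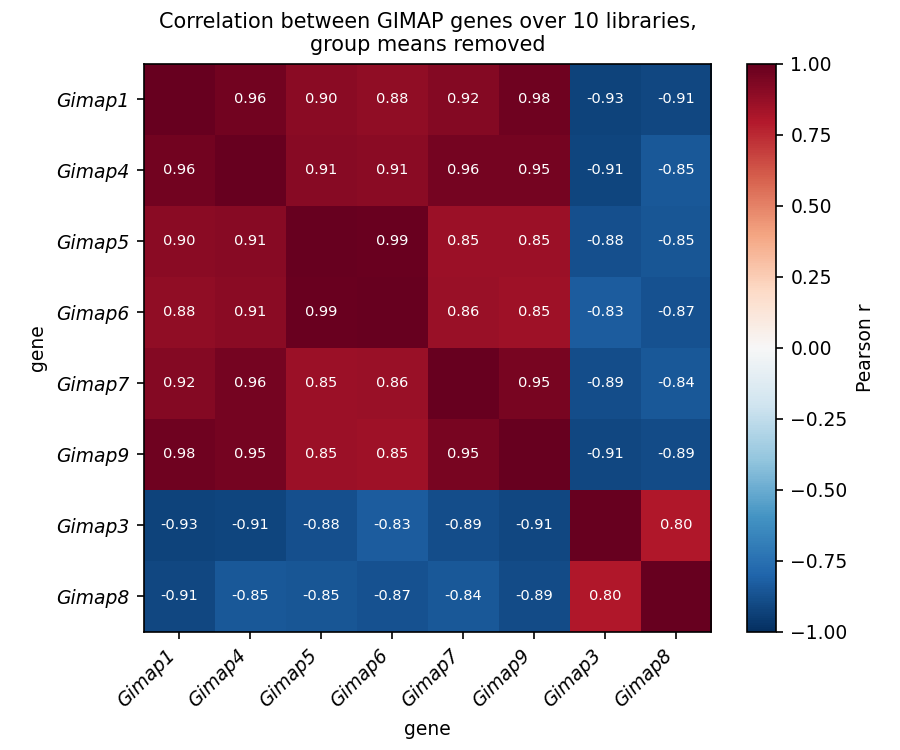
Pearson r between the GIMAP genes over the 10 libraries, on log2 normalized counts with the mean of each group removed, red for positive and blue for negative. Gimap1, Gimap4, Gimap5, Gimap6, Gimap7 and Gimap9 correlate positively with one another and negatively with Gimap3 and Gimap8.

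The same order of libraries appeared in a property of the whole library. Each gene's mean over the 10 libraries was subtracted from its log2 counts, and the remainder was fitted on exon length in each library. This slope, relative to the average library, ran from -0.103 per doubling of length in R26-WT library 3 to 0.123 in R26-TIR1(F74G) library 7. It was -0.0823 in R26-WT library 4 and 0.0810 in R26-WT library 2. Libraries of both groups lay at both ends of this trend. Each of the 8 genes followed it within groups. Of the 6 inversely related genes, Gimap9 was closest to the slope by r (r = -0.965, rho = -0.915) and Gimap7 by rho (r = -0.951, rho = -0.964), and Gimap5 was the least close by both (r = -0.911, rho = -0.782). Gimap8 had r = 0.952 and rho = 0.964, and Gimap3 r = 0.908 and rho = 0.782. All 8 relations had an adjusted p at or below 0.00671 for r and at or below 0.0397 for rho (exact permutation test within groups, adjusted over 8), and r kept its sign without R26-WT library 3 and R26-TIR1(F74G) library 7. The share of all tested genes that follow the slope as closely was not computed, so these relations are not shown to be particular to GIMAP genes. When the slope was regressed out of each gene within groups, 1 of 28 pairs passed, Gimap5 with Gimap6 (r = 0.921, rho = 0.855, adjusted permutation p = 0.0421 for r and 0.152 for rho), and the median r over the 28 pairs was 0.060. The length of the canonical GENCODE M39 transcript separated the sets, being 1269 to 1980 bases in the 6 genes, 2189 in Gimap3 and 3696 in Gimap8. This measure was chosen after seeing the data, and its part in the split was not tested. The exon lengths of the count files, which join all annotated exons, did not separate them, being 4149 bases for Gimap5 and 3700 for Gimap8.

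**Figure D5:**
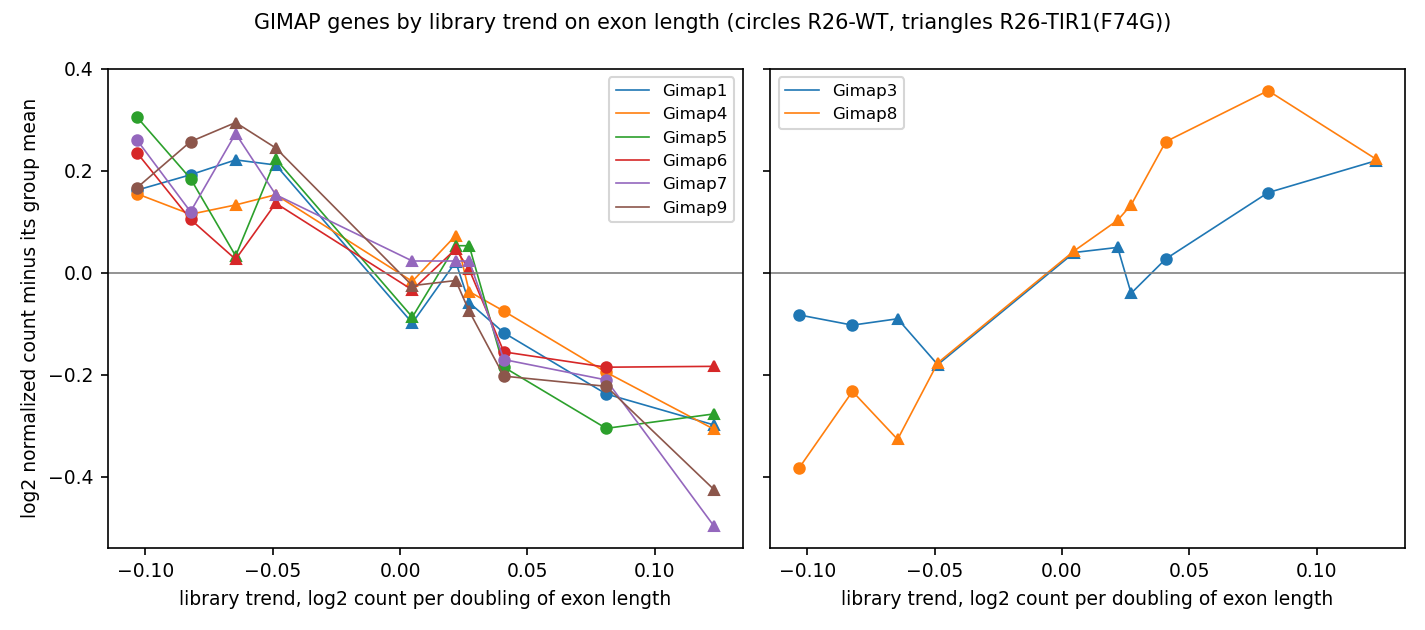
Log2 normalized count minus its group mean of each GIMAP gene (y axis) against the library's slope of log2 count per doubling of exon length (x axis), for 4 R26-WT libraries (circles) and 6 R26-TIR1(F74G) libraries (triangles). The slope is relative to the average library, as each gene's mean over all libraries was subtracted first. The 6 genes on the left run downward with the slope and Gimap3 and Gimap8, on the right, run upward.

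The genes outside the family whose pattern was closest to the mean of the 8, by Pearson r with group means removed over 10 libraries, were Gm16437 (r = 0.991), Rps23 (0.988), Gm4708 (0.987), Insig2 (0.987), Mrps35 (0.986), Mrpl14 (0.986), Eif3d (0.985) and Eef1a1 (0.985). They include ribosomal protein genes of the cytosol and the mitochondrion and translation factors. They are given as a description, since the mean is shaped by the 6 genes that moved together (Gimap3 itself had r = -0.912 with it), and 1503 genes outside the family, 9.19% of those tested, had r above 0.9.

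The immediate neighbours of the cluster did not share one direction. Within 250 kb of it lay 35 other gene rows, 10 of them tested, and 1 was called, beside 1.74% of all genes. Repin1, a zinc finger DNA-binding protein gene 48152 bases from Gimap8, rose from 103 ± 28.9 (SD, n = 4) to 186 ± 27.4 (SD, n = 6) normalized counts, with no overlap of the groups (0.86 on the log2 scale with an SE of 0.21, adjusted p = 0.00481 by DESeq2). On the same side the other near tested genes were AI854703 (log2 fold change 0.23), Zfp775 (0.09) and Lrrc61 (-0.32, DESeq2 adjusted p = 0.407). On the other side Tmem176b (-0.02) and Tmem176a (-0.09) were the only tested genes. Inside the cluster, 4 tested genes outside the family had log2 fold changes from -0.34 to 0.05, with a median of -0.31. Of these, 3 were below 0 and 0 were called.

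Promoter bases are printed for the Gimap5 and Gimap7 genes, with the largest differences, and for Gimap3, the paralog that ran opposite to Gimap5 across libraries. They are the 250 bases before the RefSeq start on build GRCm38.p6, whose coordinates differ from those above, and all 8 genes matched the table, in 9 windows since Gimap8 has 2 starts. Capitals mark matches on either strand to 6 short motifs, spelled out with their counts after the sequences, and no match overlapped another.
Gimap5 (chr6:48745947-48746196, plus strand): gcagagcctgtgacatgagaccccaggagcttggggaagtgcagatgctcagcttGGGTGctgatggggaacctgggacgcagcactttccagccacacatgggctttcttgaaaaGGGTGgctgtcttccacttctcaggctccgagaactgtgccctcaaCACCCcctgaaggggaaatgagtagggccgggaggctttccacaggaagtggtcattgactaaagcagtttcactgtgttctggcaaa
Gimap7 (chr6:48718371-48718620, plus strand): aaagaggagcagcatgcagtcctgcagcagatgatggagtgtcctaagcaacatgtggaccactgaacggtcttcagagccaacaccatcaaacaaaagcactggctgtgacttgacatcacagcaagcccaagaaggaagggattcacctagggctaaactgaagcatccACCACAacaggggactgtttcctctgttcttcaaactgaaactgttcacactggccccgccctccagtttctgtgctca
Gimap3 (chr6:48770852-48771101, minus strand): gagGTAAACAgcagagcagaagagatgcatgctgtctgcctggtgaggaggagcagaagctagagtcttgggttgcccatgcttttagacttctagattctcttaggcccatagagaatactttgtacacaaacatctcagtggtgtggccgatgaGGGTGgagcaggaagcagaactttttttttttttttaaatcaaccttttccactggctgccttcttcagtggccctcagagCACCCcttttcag
The RUNX motif TGTGGT was found in 3 of 9 GIMAP windows (Gimap1, Gimap4 and Gimap7) and in 14.0% of all 32544 promoter windows of this length. The forkhead motif TGTTTAC, of the protein family that includes Foxp3, was found in 1 window, that of Gimap3, and in 3.17% of all windows. The STAT motif TTCNNNGAA was in 2 GIMAP windows (Gimap6 and a Gimap8 start) and in 7.04% of all windows. The KLF motif GGGTG was in 6 GIMAP windows and in 52.1% of all, but the Gimap8 windows overlap and share 1 of these matches, so the 6 windows stand for 5 genes. The letters TATAAA were in 1 GIMAP window (Gimap6) and in 12.3% of all, and the ETS motif CCGGAA was in 0 and in 12.1% of all. A match is a description of the letters and not a binding site.

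Genes of the processes GIMAP proteins are linked to were mostly not called. Among 16 genes of T cell quiescence and recirculation, 1 was called higher and 0 lower, beside 1.74% of all genes, with a median log2 fold change of -0.03. It was Tcf7, a transcription factor of naive and resting T cells, which rose from 57875 ± 7140 (SD, n = 4) to 77714 ± 7248 (SD, n = 6) normalized counts (0.43 on the log2 scale with an SE of 0.12, adjusted p = 0.0257 by DESeq2 and 0.121 by edgeR). Of 13 genes of the BCL2 family, with which Gimap3 and Gimap5 have been linked, 1 was called higher and 0 lower, with a median of -0.02. Bcl2, which protects resting lymphocytes from death, rose from 40881 ± 5854 (SD, n = 4) to 52904 ± 2341 (SD, n = 6), or by 0.37 on the log2 scale with an SE of 0.11 (adjusted p = 0.0431 by DESeq2 and 0.192 by edgeR), opposite in sign to the GIMAP genes. In the autophagy and ATG8 list 0 of 13 were called, with a median of -0.11 and 9 of 13 below 0. Gabarapl2, an ATG8 gene whose protein binds Gimap6, had a log2 fold change of -0.11 (SE 0.14). Of 17 interferon-inducible GTPases, another GTPase group of immune cells, 0 were called, with a median of 0.02. Of 10 lymphocyte transcription factors, among them Runx1, Ikzf1 and Ets1, 0 were called, with a median of 0.12.

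Other cell states differed between the groups beside these values. Of 12 proliferation genes 10 were called higher by DESeq2 and 0 lower, 5 of them also by edgeR. The 6 with the smallest adjusted p by DESeq2 were Rrm2, Cdk1, Aurkb, Birc5, Ccnb2 and Mcm5, with log2 fold changes of 1.43, 1.39, 1.66, 1.56, 1.83 and 0.66, and edgeR called these except Ccnb2. For the whole list the summed normalized counts were 6135 to 8092 in R26-WT and 10675 to 16486 in R26-TIR1(F74G) libraries, without overlap. Of 10 stress and dissociation genes 3 were called lower by DESeq2 (Fos, Jun and Junb) and 0 higher, of which edgeR called Jun alone, with sums of 96535 to 139232 and 69635 to 92792, again without overlap. Among 12 genes of activated Treg cells 1 was called higher by DESeq2 (Tigit) and 0 by edgeR, and the sums were 14181 to 14699 and 14254 to 25483. GIMAP genes are expressed in other lymphocytes and in endothelium. The sums that follow cover the tested genes of each list. Of 9 B cell genes 4 were tested and 1 was called higher by DESeq2 (Cd22) and 0 by edgeR, with sums of 861 to 1397 and 775 to 1457, most of it from Cd79b (925 ± 197, SD, n = 4, and 737 ± 152, SD, n = 6) and Cd79a (226 ± 46.9, SD, n = 4, and 192 ± 29.5, SD, n = 6), parts of the B cell receptor complex. Ms4a1 and Pax5 had at most 4 raw counts in any library. Of 7 CD8 T and NK cell genes 6 were tested and 1 was called higher by both (Eomes), with sums of 1992 to 2665 and 1689 to 2565. Most of it came from Cd8b1, a chain of the CD8 coreceptor (1478 ± 284, SD, n = 4, and 1265 ± 106, SD, n = 6), and Nkg7, a gene of cytotoxic cells (640 ± 102, SD, n = 4, and 460 ± 220, SD, n = 6), while Cd8a had at most 41 raw counts and Ncr1 was at 0. Endothelial Cdh5, Kdr, Tek and Vwf had at most 3 raw counts, and Emcn and Cldn5 were at 0. Pecam1, the single endothelial marker tested and one that T cells also express, was at 7831 to 11052 and 6086 to 11757 normalized counts. Of 5 plasma cell genes Xbp1, which other cells also express, was the only one tested. It was not called, at 8477 to 10460 and 8595 to 11595, and Jchain, Igha and Sdc1 had at most 21 raw counts in any library, with Mzb1 at 0. Of 10 myeloid genes 4 were tested, with 0 calls and sums of 78.6 to 136 and 86.8 to 178, with S100a9, Cd14 and Csf3r at 0. Of 5 erythroid genes Alas2 alone was tested and was not called, at 5.92 to 22.6 and 5.21 to 15.9. The part of proliferation, stress genes and other cells in the GIMAP differences was not tested.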

How the data were processed

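Per the file headers, the authors deposited raw counts of read pairs per gene, made with featureCounts 2.1.1 on GENCODE M30 (GRCm39) from primary alignments of pairs whose mates both mapped to one chromosome, with mapping quality 30 or more. No strand option is given, and pairs overlapping several genes were not counted. The study's methods name STAR and another featureCounts version, and the submitters' processing notes name Bowtie2. The labels describe cDNA amplified from small amounts of RNA, without molecular identifiers.

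Libraries were grouped by genotype label (R26-WT n = 4, R26-TIR1(F74G) n = 6). The 16363 genes whose mean count reached 10 were tested in R 4.3.3 with DESeq2 1.42.0 (genotype only, two-sided Wald test, Benjamini-Hochberg over all tested genes, called at an adjusted p under 0.05), which gave no adjusted p for 6 genes. DESeq2 size factors scaled the counts given as normalized. TPM values used the exon lengths of the count files. Alternatives were TMM factors, edgeR 4.0.16, limma 3.58.1 voom, no count filter, no independent filtering, removal of a smooth trend on exon length, 1 surrogate variable (sva 3.50.0) and each library left out. Correlations used log2(normalized count + 1) and every within-group permutation, in place of the random resamples first planned. Scripts were tested on simulated counts. Libraries of one group differed beyond sampling noise in all 21 pairs (chi-square per degree of freedom at least 9.45), and 0 columns of per-sample values were left unused.

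The genes named are all members, called or nearest tested neighbours within 250 kb, up to 6 called genes of each list by smallest adjusted p, and the 8 genes most like the members' mean. Genes named beyond this were chosen after their values were seen. The family was picked out for description, and the lists and tests were chosen, with earlier results of these data known.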

Additional observations from a re-analysis of the deposited data

How the results depend on the processing

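No paired analysis was possible because R26-WT and R26-TIR1(F74G) libraries carry different replicate numbers. With 1 surrogate variable 2 GIMAP genes and 743 of all tested genes were called, against 0 and 284 with genotype only. Leaving out each library in turn gave 0 to 1 GIMAP genes called, the 1 being Gimap5 without R26-WT library 2, and 187 to 346 genes in all, the lowest without R26-WT library 4. Over all genes edgeR called 61 and voom 80. Gimap5 ranged from -0.54 to -0.34 (log2) and Gimap7 from -0.45 to -0.29 with each library left out, below 0 in every fit. Gimap1, Gimap4, Gimap6 and Gimap9, which no fit called, were below 0 in every fit too, but their values shrank by over 1.5 times without certain libraries: Gimap6 from -0.16 to -0.078 without R26-WT library 3, Gimap4 from -0.16 to -0.10 without R26-WT library 3 or R26-TIR1(F74G) library 7, Gimap9 from -0.18 to -0.084 without R26-WT library 4 and to -0.10 without R26-TIR1(F74G) library 7, and Gimap1 from -0.19 to -0.13 without R26-WT library 4. With 1 surrogate variable these 4 genes had -0.089 (Gimap9) to -0.12 (Gimap1). The median over the 8 genes was then -0.10, against -0.17 with genotype only. That median ran from -0.23 without R26-WT library 2 to -0.11 without R26-TIR1(F74G) library 7. Gimap3 had 0.0062 with the exon length trend removed and -0.059 to 0.043 with each library left out. Gimap8 had 0.076 by voom and -0.14 to 0.10 with each library left out. The cause of these shifts was not tested. Of the 28 correlated pairs 18 passed without 2 libraries, with 8 left, and 1 passed with the exon length trend regressed out, an alternative chosen after seeing the data. Each gene had at least 2774 counts in every library, and no fit was made at matched depth.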
